A study of Homo sapiens with 18 samples.

Results

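The insulin-like growth factor (IGF) receptors, their binding proteins and their first intracellular substrates were followed in SH-SY5Y, an established line grown from a human neuroblastoma, which takes on a neuronal form when treated in culture. The set held 10 genes, taken by symbol from a table of 26372 gene symbols: the receptors IGF1R, IGF2R and INSR, the substrates IRS1 and IRS2, and the binding proteins IGFBP2, IGFBP3, IGFBP4, IGFBP5 and IGFBP6. All 10 were found, and all 10 passed the filter on low values used for testing (a mean of at least 1 FPKM, fragments per length of transcript and per library size, over all libraries), as did 13785 genes in all.

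The study asked how ZNHIT3, a zinc finger protein that acts in the assembly of small nucleolar ribonucleoproteins and whose loss of function is linked to a childhood brain disorder, bears on neuronal differentiation. Every library came from SH-SY5Y cells infected with a FUGW lentivirus that carried 1 of 3 ZNHIT3 constructs: the wild-type protein (WT), the C14R substitution, or a deletion. Each construct was sampled on day 0 and on day 18 in 3 libraries, which gave 6 groups and 18 libraries of ribosomal-RNA-depleted total RNA. For the day 18 groups, the culture had been moved 48 hours after infection to serum-free neuronal medium with retinoic acid at 10 µM, dibutyryl cyclic AMP at 2 mM, KCl at 20 mM and BDNF at 50 ng/ml. No uninfected or empty-vector group was analysed here, so WT is the reference, and the cells keep their own ZNHIT3 gene, whose reads the table does not separate from those of the construct. The labels of the 3 deletion libraries of a day name slightly different end points for the deletion. The labels do not say whether replicates were separate cultures, so every p-value below measures only the spread between these libraries, which may be technical.

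IGF1 and IGF2 are secreted growth factors that signal through the tyrosine kinase IGF1R and, with insulin, through INSR. The activated receptors phosphorylate IRS1 and IRS2, which recruit PI3-kinase and so lead to AKT and mTOR. IGF2R has no kinase: it takes up IGF2 for breakdown and also carries lysosomal enzymes. The secreted IGFBPs hold the ligands away from the receptors or carry them to the cell surface, and proteases such as PAPPA and HTRA1 cut them to release the ligand. In neuroblasts and neuroblastoma cells IGF signalling is known for its part in survival, proliferation and the growth of neurites.

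ZNHIT3 itself had levels of 530.6 to 542 FPKM in the WT libraries of day 0, 418.9 to 432 with C14R and 292 to 310.1 with the deletion. On day 18 the ranges were 1103 to 1193, 599.7 to 755.8 and 294.3 to 312.8 FPKM, in the same order and without overlap. Library totals are not in the table. The steps between low values gave a relative depth of 59.0% to 84.7% of the deepest library on day 0 and 82.4% to 100% on day 18, and upper quartiles ran from 10.9 to 11.3 FPKM. SNORD3A, a small nucleolar RNA, took 6.87% to 58.6% of the FPKM sum on day 0 and 1.01% to 15.1% on day 18. Its highest shares, 51.5% to 58.6%, were in replicate 1 of each construct and replicate 3 of C14R on day 0. Among the day 18 libraries, replicate 1 of C14R stood apart: it had the lowest SNORD3A share of all, and the lowest IGFBP2, IGFBP4 and IGFBP6 of the 9 day 18 libraries.

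Marker lists describe the cells these levels come from. By the test described below, 37.9% to 38.6% of all tested genes rose in a line and 34% to 35% fell. All 10 neuronal markers rose in each line, from a summed level of 1057 to 1098 FPKM on day 0 to 2298 to 2499 FPKM on day 18. All 10 tested genes of a 12-gene list for the substrate-adherent, mesenchymal-like cell form of neuroblastoma fell in each line, from a sum of 916.2 to 1075 FPKM to 177.1 to 189 FPKM, and all 10 proliferation genes fell, from 464.7 to 504.9 FPKM to 156.3 to 207.1 FPKM. The list for the neuroblastic form summed to 962.1 to 1050 FPKM on day 0 and 2150 to 2403 FPKM on day 18, and in WT 4 of its 9 tested genes rose and 3 fell. The higher sum in WT came from CHGB (90.8 to 962.7 FPKM) and DBH (64 to 444.6 FPKM), so it does not describe the list as a whole. TH, the enzyme that starts catecholamine synthesis, was at 0.0406 and 0.535 FPKM in WT on these days. The Schwann cell or glia list summed to 3.36 to 5.01 FPKM on day 0 and 8.95 to 10.9 on day 18, with 1 of its 7 genes, FABP7, at 0 throughout. Of 8 genes responsive to retinoic acid, which was in the medium, 6 rose and 1 fell in each line, from a sum of 266.7 to 285.1 FPKM to 3227 to 4105 FPKM. In bulk libraries such as these, fewer cells of a type and less RNA per cell cannot be told apart, and the part of the marker changes in the results below was not tested.

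The genes lie at the following places in GENCODE 29 on GRCh38, the build given as hg38 in the submitters' processing notes. All 10 are protein-coding. IGF1R spans chr15:98648539-98964530 (plus strand), IGF2R chr6:159969099-160113507 (plus), INSR chr19:7112255-7294034 (minus), IRS1 chr2:226731317-226799759 (minus) and IRS2 chr13:109752698-109786568 (minus). IGFBP2 at chr2:216632828-216664436 (plus) and IGFBP5 at chr2:216672105-216695525 (minus) are neighbours that point toward each other across 7668 bases. IGFBP3 at chr7:45912245-45921874 (minus) lies 18576 bases from IGFBP1, and IGFBP4 and IGFBP6 lie at chr17:40443461-40457731 (plus) and chr12:53097436-53102345 (plus). IGF1R, IGF2R, IGFBP5 and IRS2 each overlap an annotated gene on the other strand, and since the use of strand in counting is not given in the sources used here, reads of such partners cannot be told apart from theirs.

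The promoters of the 4 binding proteins with the largest changes are shown because 2 of these genes rose and 2 fell over the same 18 days. Each sequence is the 250 bases before the RefSeq start, 5′ to 3′ on the gene's strand, from GRCh38.p14. Capitals mark matches, on either strand, to the TATA box letters TATAAA or the GC box letters GGGCGG. The fallen genes come first: IGFBP3 at chr7:45921273-45921522 (minus) and IGFBP5 at chr2:216695550-216695799 (minus). Then come IGFBP4 at chr17:40443200-40443449 (plus) and IGFBP6 at chr12:53097417-53097666 (plus). The RefSeq starts of IGFBP3 and IGFBP6 lie inside the GENCODE spans given above. The IGFBP3 window therefore falls wholly, and the IGFBP6 window mostly, within the annotated gene.
IGFBP3: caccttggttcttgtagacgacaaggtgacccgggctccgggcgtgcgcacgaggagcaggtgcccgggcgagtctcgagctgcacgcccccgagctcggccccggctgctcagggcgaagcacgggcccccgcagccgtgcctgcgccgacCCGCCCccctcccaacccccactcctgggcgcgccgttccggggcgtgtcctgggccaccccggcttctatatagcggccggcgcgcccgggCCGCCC
IGFBP5: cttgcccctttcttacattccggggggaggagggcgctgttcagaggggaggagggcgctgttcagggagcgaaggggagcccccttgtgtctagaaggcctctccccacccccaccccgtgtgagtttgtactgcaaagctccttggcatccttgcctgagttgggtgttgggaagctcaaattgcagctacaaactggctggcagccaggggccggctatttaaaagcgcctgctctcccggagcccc
IGFBP4: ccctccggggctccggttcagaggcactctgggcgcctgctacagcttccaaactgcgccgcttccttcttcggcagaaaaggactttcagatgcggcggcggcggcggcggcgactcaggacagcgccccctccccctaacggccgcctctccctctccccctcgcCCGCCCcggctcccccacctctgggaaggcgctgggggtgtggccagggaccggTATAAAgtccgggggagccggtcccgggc
IGFBP6: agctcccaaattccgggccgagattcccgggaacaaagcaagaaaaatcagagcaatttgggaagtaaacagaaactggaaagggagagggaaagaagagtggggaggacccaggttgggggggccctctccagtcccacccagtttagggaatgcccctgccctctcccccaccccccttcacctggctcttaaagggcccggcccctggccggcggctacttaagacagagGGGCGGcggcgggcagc
The IGFBP4 window holds TATAAA 29 bases before the start and 1 GC box, the IGFBP3 window 2 GC boxes, the IGFBP6 window 1 GC box, and the IGFBP5 window neither. Only these exact letters were searched. Similar stretches with other letters, such as tatttaa in the IGFBP5 window and tatata in the IGFBP3 window, are not marked, so the matches do not set risen genes apart from fallen ones. Among 35116 RefSeq promoter windows of the same length, 10.7% hold TATAAA and 42.6% hold GGGCGG. Windows were also searched for the cyclic AMP response half-site TGACG, the nuclear receptor half-site AGGTCA and the E-box CACGTG, which 21.2%, 12.1% and 6.34% of all windows hold, and none of the 4 printed windows does. The windows of IGFBP3 and IGFBP4 are 76% and 71.6% G or C, against 61.2% in those of IGFBP5 and IGFBP6.

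The first comparison was day 18 against day 0 within each construct, tested with limma on log2(FPKM + 1) and called at a Benjamini-Hochberg adjusted p under 0.05 over all genes tested. In each of the 3 lines 6 members rose (IGF1R, IGF2R, INSR, IRS2, IGFBP4 and IGFBP6), 3 fell (IGFBP2, IGFBP3 and IGFBP5) and IRS1 did not pass. Change was common in these cells. In WT, 38.2% of all tested genes were called higher and 34% lower, with C14R 37.9% and 35%, and with the deletion 38.6% and 34.4%. The median log2 change of the 10 members was 0.23 in WT, 0.28 with C14R and 0.28 with the deletion, against 0.03, 0.02 and 0.03 for all tested genes. Without replicate 1 of C14R on day 18 the count in C14R was 8 in place of 9, and the other lines kept 9. All log2 changes are on the log2(FPKM + 1) scale, which understates the change of genes of low level.

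**Figure D1:**
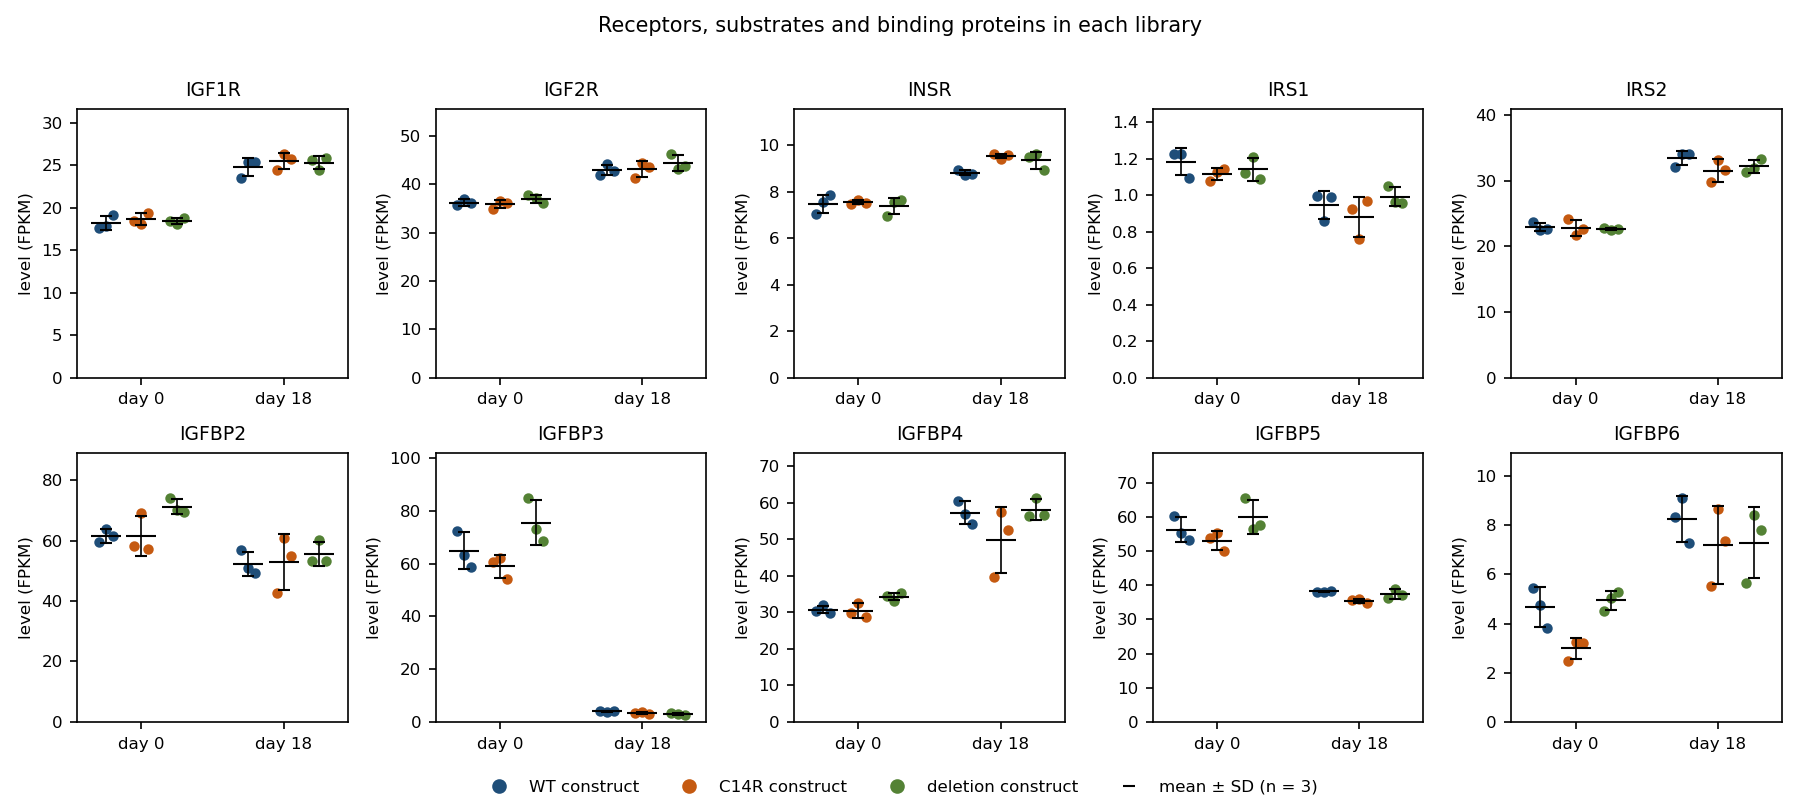
Level in FPKM (vertical axes, each from 0) of the 10 genes in each of 18 libraries, by day and construct. Points are libraries, and the black bars give the mean ± SD of 3. IGFBP3 fell from 54 to 85 FPKM on day 0 to 2.57 to 4.21 FPKM on day 18, while every IGF1R and IGF2R library of day 18 lies above every library of day 0.

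Among the receptors, IGF1R, which binds IGF1 and IGF2 and carries most of their growth signal, was the one with the largest rise. Its WT libraries had 17.6, 17.8 and 19.2 FPKM on day 0 and 23.5, 25.4 and 25.4 FPKM on day 18. With C14R it had 18.5, 18.1 and 19.4 and then 24.5, 26.4 and 25.7 FPKM. With the deletion it had 18.4, 18.1 and 18.7 and then 25.7, 24.4 and 25.8 FPKM. Every day 18 library was thus above every day 0 library, whichever construct it carried. The ratio of means was 1.36, 1.37 and 1.37, with log2 changes of 0.43, 0.43 and 0.44 (SE 0.05 in each) and limma adjusted p of 2.8e-07, 2.4e-07 and 2e-07. The 3 changes differed by less than their own SE.

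IGF2R, the uptake receptor for IGF2, was the most abundant receptor per length in every group. Its mean was 36.2 ± 0.663 FPKM in WT, 35.9 ± 0.792 with C14R and 37 ± 0.855 with the deletion on day 0 (SD, n = 3 in each). On day 18 it was 43 ± 1.13, 43.1 ± 1.61 and 44.5 ± 1.64 FPKM, with all 9 libraries (41.3 to 46.3) above all 9 of day 0 (35 to 37.8). This was a log2 change of 0.24, 0.26 and 0.26 (SE 0.04), with limma adjusted p of 2.8e-05, 1.2e-05 and 1.2e-05. Since IGF1R rose by more, the ratio of IGF2R to IGF1R, both in FPKM, went down from 1.99, 1.92 and 2.01 to 1.74, 1.69 and 1.76 in WT, C14R and deletion, with no overlap between days. Each such exact permutation test of 3 against 3 libraries gave p = 0.1 (two-sided), the smallest that 20 relabelings allow.

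INSR, the insulin receptor, which can also pair with IGF1R in hybrid receptors, was the least abundant of the 3 receptors. Its libraries had 7.04, 7.54 and 7.84 FPKM on day 0 and 8.95, 8.74 and 8.78 on day 18 in WT. With C14R the values were 7.49, 7.64 and 7.52 and then 9.62, 9.42 and 9.57 FPKM, and with the deletion 6.98, 7.57 and 7.63 and then 9.49, 9.64 and 8.93 FPKM. The days did not overlap in any line. The log2 changes were 0.21, 0.30 and 0.30 (SE 0.05) with limma adjusted p of 0.0012, 4.4e-05 and 4.1e-05. IGF1R per INSR stood at 2.43, 2.47 and 2.50 on day 0 and at 2.81, 2.67 and 2.71 on day 18, and the days overlapped for this ratio with C14R and the deletion (exact permutation p = 0.2 in each).

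The substrates did not move together. IRS2, the docking protein that links the receptors to PI3-kinase in many neural cells, had 23.6, 22.5 and 22.6 FPKM on day 0 and 32.1, 34.1 and 34 on day 18 in WT. With C14R it had 24.1, 21.7 and 22.6 and then 29.8, 33.2 and 31.6 FPKM, and with the deletion 22.8, 22.5 and 22.6 and then 31.3, 32 and 33.2 FPKM. The 2 days were far apart in all 3 lines. In log2 units the rise was 0.52, 0.45 and 0.49 (SE 0.05), with limma adjusted p of 2e-08, 1.5e-07 and 5.2e-08.

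IRS1, the other docking protein, was the least abundant member in every group, with a mean of 1.04 FPKM over all libraries, just above the filter of 1. It had 1.10 to 1.23 FPKM in WT on day 0 and 0.857 to 0.995 on day 18, with C14R 1.08 to 1.15 and then 0.759 to 0.967, and with the deletion 1.09 to 1.21 and then 0.959 to 1.05. The ranges of the 2 days did not overlap in any line, but the log2 changes of -0.16, -0.17 and -0.11 (SE 0.08) missed the threshold at limma adjusted p of 0.068, 0.060 and 0.24. Under 5 of 16 alternative settings in WT, 4 of 15 in C14R and 1 of 16 in the deletion they passed it. IRS2 per IRS1 in FPKM went from 19.4, 20.5 and 19.9 to 35.5, 36.3 and 32.6 without overlap (exact permutation p = 0.1 in each line).

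**Figure D2:**
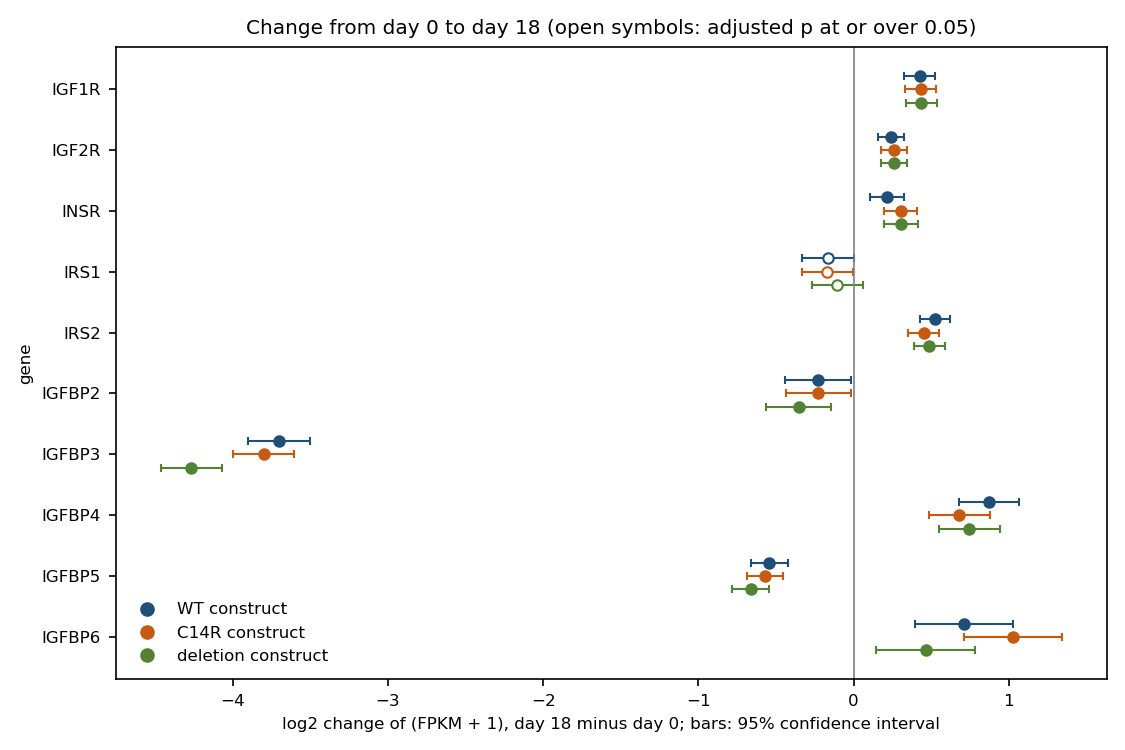
Log2 change of FPKM + 1 from day 0 to day 18 (horizontal axis) for each gene (vertical axis), with 1 symbol per construct and bars for the 95% confidence interval of the limma fit. Open symbols are changes that missed the threshold: IRS1 in all 3 lines. IGFBP3 is far to the left of all the others, at -3.70, -3.80 and -4.27.

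The binding proteins went in opposite directions, and IGFBP3 moved by far the most of the 10 genes. IGFBP3 is the main carrier of IGFs in the blood and is also made by many mesenchymal cells. On day 0 its libraries had 72.4, 63.4 and 58.7 FPKM in WT, 60.6, 62.1 and 54 with C14R, and 85, 73.1 and 68.4 with the deletion. On day 18 they had 4.21, 3.92 and 3.99, then 3.35, 3.63 and 2.91, then 3.33, 3.01 and 2.57 FPKM. The level was thus 16-fold lower in WT, 17.9-fold lower with C14R and 25.4-fold lower with the deletion, in the ratio of means. The log2 changes were -3.70, -3.80 and -4.27 (SE 0.09) with limma adjusted p of 9e-16, 6.1e-16 and 1.3e-16. The substrate-adherent markers fell over the same days, among them VIM, the mesenchymal intermediate filament, from 565.3 to 49.3 FPKM in WT, and their part in the fall of IGFBP3 was not tested.

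IGFBP5, which binds IGFs and extracellular matrix and is the neighbour of IGFBP2, fell by less. Its WT libraries went from 60.2, 55.3 and 53.2 FPKM to 38.1, 38.2 and 38.4. With C14R they went from 53.9, 55.3 and 50 to 35.6, 35.9 and 34.7, and with the deletion from 65.6, 56.5 and 57.7 to 36.2, 38.9 and 37.1. The lowest day 0 library stood above the highest of day 18 in every line. The log2 changes were -0.54, -0.57 and -0.66 (SE 0.06) with limma adjusted p of 1.3e-07, 6.8e-08 and 9.2e-09.

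IGFBP2, the binding protein typical of the fetal brain, had the smallest change of the family. It had 59.4, 63.8 and 61.4 FPKM in WT on day 0 and 56.9, 50.9 and 49.4 on day 18. With C14R it had 58.4, 69 and 57.3 and then 42.6, 60.9 and 54.9 FPKM, which overlapped, and with the deletion 74.2, 70.2 and 69.4 and then 53.4, 60.1 and 53.2 FPKM, which did not. The log2 changes were -0.23, -0.23 and -0.35 (SE 0.10) with limma adjusted p of 0.047, 0.049 and 0.0040. In WT this call was lost without any 1 of 5 libraries (replicate 1, 2 or 3 of day 0, or 2 or 3 of day 18: log2 -0.25, -0.20, -0.23, -0.21 and -0.19, adjusted p 0.058 to 0.14). With C14R it was lost without replicate 2 of day 0 (-0.14, adjusted p 0.23) or without replicate 1 of day 18 (-0.08, adjusted p 0.35). With small RNA genes left out of the scaling the changes were -0.02, -0.04 and -0.14 and passed in no line, while the median of all genes then stood at 0.21, 0.18 and 0.22.

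IGFBP4, a binding protein that holds IGF2 and IGF1 until PAPPA cuts it, had the largest mean rise over the 3 lines on the log2(FPKM + 1) scale, though not in the ratio of FPKM, where IGFBP6 with C14R was higher. Its WT libraries went from 30.5, 32 and 29.9 FPKM to 60.6, 56.9 and 54.3. With the deletion they went from 34.5, 33.2 and 35.2 to 56.3, 61.4 and 56.8. With C14R they went from 29.9, 32.7 and 28.7 to 39.8, 57.4 and 52.6, where replicate 1 of day 18 was the low value. The days did not overlap in any line. The ratio of means was 1.86 in WT, 1.64 with C14R and 1.70 with the deletion, with log2 changes of 0.87, 0.68 and 0.75 (SE 0.09) and limma adjusted p of 1.7e-07, 3.7e-06 and 1.2e-06. Without replicate 1 of day 18 the change with C14R was 0.83.

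IGFBP6, which binds IGF2 with much higher affinity than IGF1, also rose, from a low level. In WT its libraries had 5.44, 4.75 and 3.82 FPKM on day 0 and 8.34, 9.11 and 7.26 on day 18. With C14R they had 2.49, 3.26 and 3.21 and then 5.51, 8.68 and 7.36, and with the deletion 4.53, 5.04 and 5.27 and then 5.65, 8.40 and 7.79. The spread on day 18 was wide, and the lowest C14R and deletion libraries were each replicate 1. The ratio of means was 1.76 in WT, 2.41 with C14R and 1.47 with the deletion, with log2 changes of 0.71, 1.02 and 0.46 (SE 0.15) and limma adjusted p of 0.00041, 9.1e-06 and 0.010. With the deletion the call was lost without replicate 2 of day 18 (log2 0.36, adjusted p 0.059), and without replicate 1 of day 18 the change with C14R was 1.18.

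These changes gave the 5 binding protein transcripts another make-up. Their summed level per length was 218.1 ± 10.5 FPKM in WT, 207 ± 14.7 with C14R and 246 ± 15.5 with the deletion on day 0 (SD, n = 3), and 160.2 ± 7.49, 148.6 ± 20.1 and 161.4 ± 9.18 FPKM on day 18. The days did not overlap in any line (exact permutation p = 0.1 in each). IGFBP3 made up 29.7%, 28.5% and 30.6% of the sum on day 0 and 2.53%, 2.24% and 1.84% on day 18. IGFBP4 went the other way, from 14.1%, 14.7% and 14% to 35.8%, 33.4% and 36.1%. IGFBP2 and IGFBP4 together thus made up most of the sum on day 18, where IGFBP2 held 32.7%, 35.4% and 34.4%. The ratio of IGFBP4 to IGFBP3, both in FPKM, was 0.478, 0.517 and 0.458 on day 0 and 14.2, 15.2 and 19.8 on day 18.

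**Figure D3:**
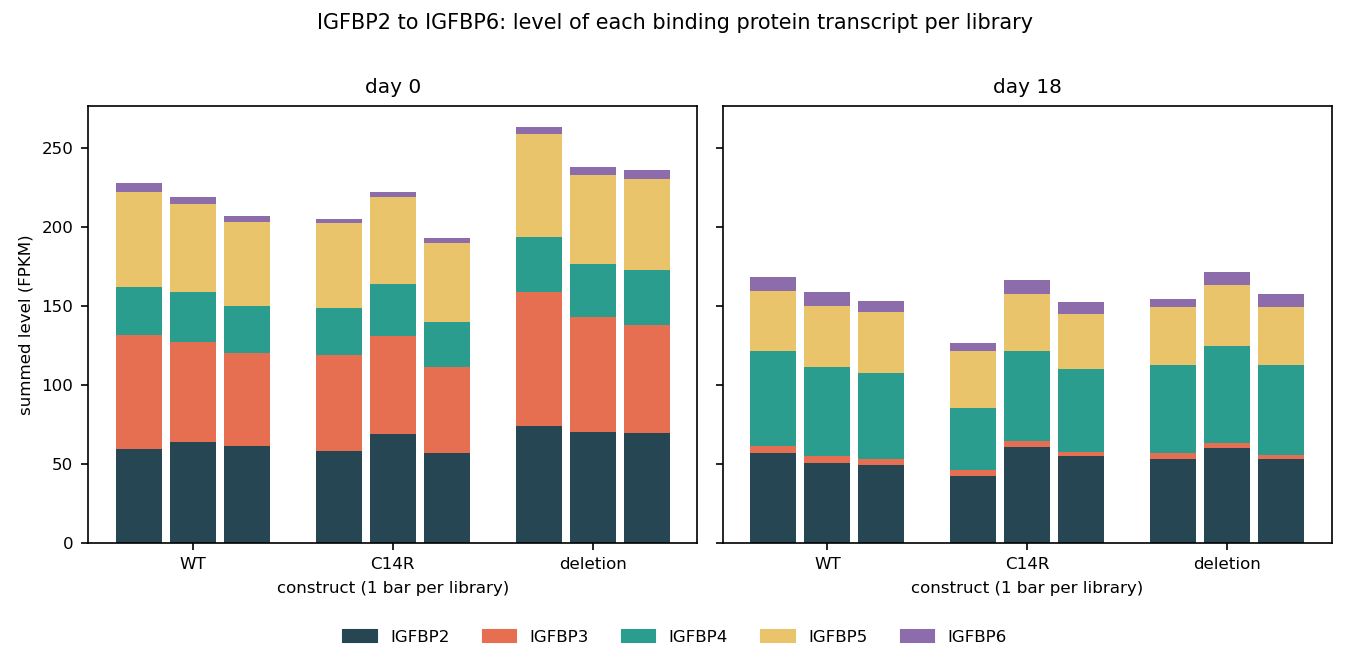
Summed level in FPKM (vertical axis) of the binding protein transcripts, stacked by gene, with 1 bar per library and constructs along the horizontal axis. On day 0 the IGFBP3 share was close to that of IGFBP2 in each line, and on day 18 it was 1.84% to 2.53% of the sum in the mean of each line.

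The order of the levels changed with the make-up. In WT on day 0 it ran from IGFBP3, IGFBP2 and IGFBP5, whose libraries overlapped as neighbours, through IGF2R, IGFBP4, IRS2, IGF1R, INSR and IGFBP6 to IRS1. With C14R the first 3 stood as IGFBP2, IGFBP3 and IGFBP5, again with overlap, and with the deletion IGFBP3 and IGFBP2 overlapped and IGFBP5 was below. In WT on day 18 the order was IGFBP4 and IGFBP2, which overlapped, then IGF2R, IGFBP5, IRS2, IGF1R, then INSR and IGFBP6, which overlapped, then IGFBP3 and IRS1. With C14R on day 18 IGFBP2 came first, IGFBP4 next and IGF2R after it, each overlapping the next. IGFBP3 went from the top of the order, or next to it, to the last place but 1 in all 3 lines.

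The next comparisons set the constructs against each other on the same day, the question the constructs were made for. No member was called in any of the 6 such comparisons, nor in the 2 tests of whether the day effect differed from WT (limma, adjusted p under 0.05). Calls were rare in the whole table too. On day 0 the share of all tested genes called was 0% for C14R against WT, 0.029% for the deletion against WT and 0.058% for C14R against the deletion. On day 18 it was 0.0363%, 0.0725% and 0.029%, and for the 2 differences in the day effect 0% with C14R and 0.0145% with the deletion. At an unadjusted p under 0.05, 1, 1 and 4 members passed on day 0, 2, 1 and 1 on day 18 (C14R against WT, the deletion against WT, and C14R against the deletion, on each day), and 0 and 1 for the day effect. Of all tested genes, 2.81%, 6.22% and 9.84% passed at that level on day 0, 11.1%, 11.4% and 11.2% on day 18, and 5.73% and 7.36% for the day effect, so that a count of 1 or 2 of 10 is near the background. The count of 4 was above its share. It was made up of IGFBP2, IGFBP3, IGFBP5 and IGFBP6, all lower with C14R than with the deletion. None of these passed after adjustment (limma adjusted p of 0.22 to 0.50), and they come from the same libraries. With limma array weights 1 member, IGFBP6 in C14R against the deletion on day 0, was called.

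The receptors and substrates were close between constructs. Over their 30 comparisons the largest log2 difference was 0.10, and the 95% intervals all lay between -0.25 and 0.21. That largest difference was INSR on day 18, where the 3 C14R libraries (9.42 to 9.62 FPKM) stood above the 3 of WT (8.74 to 8.95 FPKM), with a limma adjusted p of 0.48. For the 60 comparisons of all 10 genes the intervals reached from -0.90 to 0.42, the widest being those of IGFBP6.

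IGFBP6 was the member with the smallest unadjusted p in C14R against WT and in C14R against the deletion on day 0. Its C14R libraries (2.49 to 3.26 FPKM) lay below all WT libraries (3.82 to 5.44) and all deletion libraries (4.53 to 5.27). The difference was -0.50 on the log2 scale against WT (SE 0.15, 95% interval -0.82 to -0.19, unadjusted p = 0.0038, limma adjusted p = 1) and -0.58 against the deletion (SE 0.15, interval -0.90 to -0.26, unadjusted p = 0.0013, limma adjusted p = 0.22). The C14R day effect exceeded that of WT by 0.32 (SE 0.21, interval -0.13 to 0.76), with limma adjusted p = 0.91. On day 18 the C14R range (5.51 to 8.68) overlapped those of WT and the deletion.

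IGFBP3 held that place in 4 other comparisons. On day 0 the deletion was 0.22 above WT (SE 0.09, interval 0.02 to 0.41, limma adjusted p = 0.77), with ranges that overlapped (68.4 to 85 against 58.7 to 72.4 FPKM). On day 18 the direction was the opposite: the deletion stood at -0.35 against WT (SE 0.09, interval -0.55 to -0.15, limma adjusted p = 0.18) and C14R was at -0.23 (SE 0.09, interval -0.43 to -0.04, limma adjusted p = 0.36), each below all WT libraries. The fall over the 18 days was thus larger with the deletion than in WT by -0.56 (SE 0.13, interval -0.84 to -0.29, unadjusted p = 0.00054, limma adjusted p = 0.30), which did not pass. Over the alternative settings this difference ran from -0.66 to -0.48 with adjusted p of 0.053 to 0.61. These 4 comparisons share WT libraries.

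On day 0 the deletion libraries of IGFBP2 (69.4 to 74.2 FPKM) and IGFBP4 (33.2 to 35.2 FPKM) had values above all WT libraries (59.4 to 63.8 and 29.9 to 32 FPKM), with log2 differences of 0.21 and 0.15 that did not pass (limma adjusted p of 0.80 and 0.82). The exact permutation p was 0.1 in each. How many of all tested genes separate in this way was not computed, here or for the other separations between constructs, so separation alone is not read as a result. The deletion and WT ranges of IGFBP5 and IGFBP6 overlapped (limma adjusted p of 0.82 and 0.94). The summed level of the substrate-adherent markers on day 0 was 965.7 ± 12.1 FPKM in WT, 925.1 ± 14.7 with C14R and 1037 ± 33 with the deletion (SD, n = 3). In WT, C14R and deletion, mean IGFBP3 was 64.9, 58.9 and 75.5 FPKM and mean IGFBP5 56.2, 53.1 and 60 FPKM. Mean IGFBP2 was 61.5, 61.5 and 71.3 FPKM, mean IGFBP4 30.8, 30.4 and 34.3, and mean IGFBP6 4.67, 2.99 and 4.95. VIM, which makes up most of that sum, was the marker called between constructs, in C14R against the deletion on day 0. It was at 539.8 ± 19.7 against 627.1 ± 21.3 FPKM (log2 -0.22, limma adjusted p = 0.040). The other 9 tested genes of the substrate-adherent list were not called there. Among them only TWIST1 had a higher mean with C14R, and slightly so (166 against 163.1 FPKM). The median log2 difference of the tested genes of the list was -0.11, with C14R below the deletion. Given the weight of VIM in the sum, the sum and VIM are largely 1 and the same measure. The part of these marker levels in the binding protein levels was not tested. On day 18 the member with the smallest unadjusted p in C14R against the deletion was IGFBP4, at -0.23 (SE 0.09, interval -0.43 to -0.04, limma adjusted p = 0.43). It was -0.08 without replicate 1 of C14R.

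**Figure D4:**
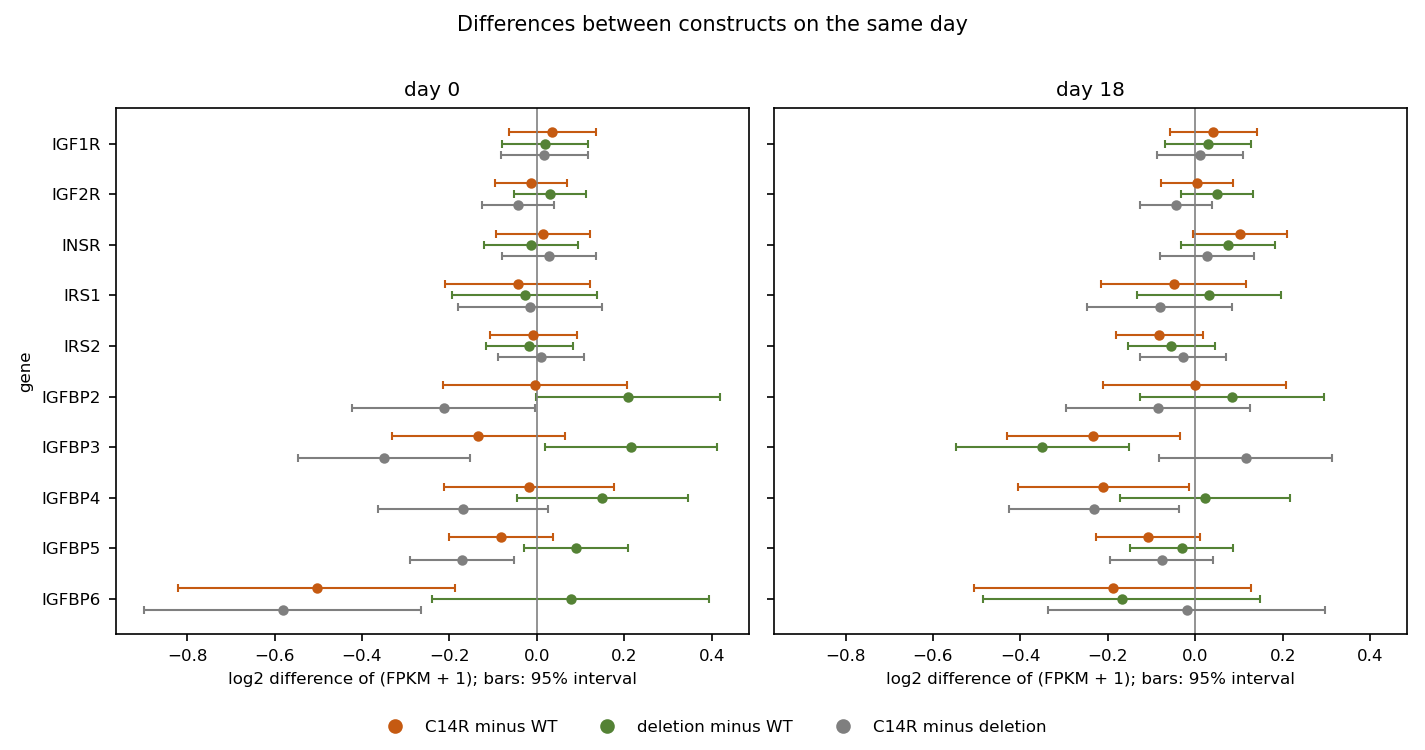
Log2 difference of FPKM + 1 between constructs on day 0 and on day 18 (horizontal axes) for each gene (vertical axis), with the 95% interval of the limma fit. Receptors and substrates stay within -0.25 and 0.21, with 0 inside each interval. Intervals below 0 are those of IGFBP6 for C14R against both others on day 0, of IGFBP2, IGFBP3 and IGFBP5 for C14R against the deletion on day 0, of IGFBP3 for both constructs against WT on day 18 and of IGFBP4 for C14R against both others on day 18, and that of IGFBP3 for the deletion against WT on day 0 lies above 0. None passed after adjustment.

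The wider pathway was read from 7 lists with 71 genes, of which 60 were tested. In WT 23 of the 60 rose, 28 fell and 9 did not pass, with C14R 23, 28 and 9, and with the deletion 24, 27 and 9. Of all tested genes, 38.2%, 37.9% and 38.6% were called higher in these lines and 34%, 35% and 34.4% lower. The count that rose was near its share, and the count that fell was somewhat above it. The same shares are the background for the counts of each list below. The median log2 change of the 60 was -0.04, -0.06 and -0.11, against 0.03, 0.02 and 0.03 for all tested genes. None of the 60 was called between constructs on either day or in the day effect (limma, adjusted p under 0.05), where 0% to 0.0725% of all genes were. At an unadjusted p under 0.05 the count of the 60 was 2, 3 and 10 on day 0 for C14R against WT, the deletion against WT and C14R against the deletion, 7, 8 and 8 on day 18, and 5 and 4 for the day effect of C14R and of the deletion. The shares of all tested genes at that level, given above, were 2.81% to 9.84% on day 0, 11.1% to 11.4% on day 18, and 5.73% and 7.36% for the day effect.

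Of the ligands, IGF2 was the one that could be tested, and it rose steeply. Its libraries had 13.7, 15.9 and 16.3 FPKM in WT on day 0 and 219.7, 174.8 and 176.1 on day 18. With C14R they had 17.7, 15 and 22.1 and then 403.6, 206.5 and 365.9, and with the deletion 8.58, 11 and 11.3 and then 292.2, 234.9 and 267.3 FPKM. The rise was 12.4-fold, 17.8-fold and 25.7-fold, with log2 changes of 3.55, 4.04 and 4.56 (SE 0.19) and limma adjusted p of 2.6e-11, 4.5e-12 and 8.1e-13. The rise with the deletion was larger than in WT by 1.01 (SE 0.27, limma adjusted p = 0.34), which did not pass. INS-IGF2, a read-through gene over the same locus, was at 0 to 0.195 FPKM. IGF1 had at most 0.0270 FPKM in any library, and INS was listed at 0 in all 18.

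Of the binding proteins outside the set, IGFBP7, a secreted matrix protein that binds insulin, fell with IGFBP3. It went from 8.11 ± 0.582, 6.56 ± 0.0964 and 9.39 ± 0.996 FPKM in WT, C14R and deletion to 0.808 ± 0.336, 0.817 ± 0.395 and 0.587 ± 0.144 (SD, n = 3), with log2 changes of -2.35, -2.08 and -2.71 (SE 0.14) and limma adjusted p of 1.2e-10, 6.3e-10 and 1.7e-11. IGFBPL1, an IGFBP-like protein of developing neurons, rose by 0.19 in WT (limma adjusted p = 0.0089) and by 0.35 with the deletion (7.1e-05), while with C14R its change was 0.12 (0.089). IGFBP1, the neighbour of IGFBP3 and a liver protein, had at most 0.0444 FPKM in any library. IGFALS, the partner of IGFBP3 in the serum complex, had at most 0.308 FPKM.

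Of 7 proteases and their inhibitors 5 were tested, and in each line 1 rose and 4 fell. PAPPA2, which cuts IGFBP5 and IGFBP3, rose from 0.114 ± 0.0543 to 4.95 ± 0.231 FPKM in WT, or by 2.42 on the log2 scale (SE 0.08, limma adjusted p = 4.4e-14). HTRA1, a serine protease that cuts IGFBP5 and other binding proteins, fell from 27.5 ± 1.33 to 2.06 ± 0.331 FPKM (-3.23, SE 0.10, limma adjusted p = 1.7e-14). STC2, a stanniocalcin that inhibits PAPPA, fell from 4.76 ± 0.106 to 0.656 ± 0.0866 FPKM (-1.80, SE 0.08, limma adjusted p = 6.9e-13). The other 2 that fell were PAPPA, from 13.6 to 5.34 FPKM (-1.20), and ADAM12, from 16.7 to 4.18 FPKM (-1.77). The C14R and deletion lines changed in the same directions, with PAPPA2 at 2.26 and 2.19 and HTRA1 at -3.29 and -3.58.

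**Figure D5:**
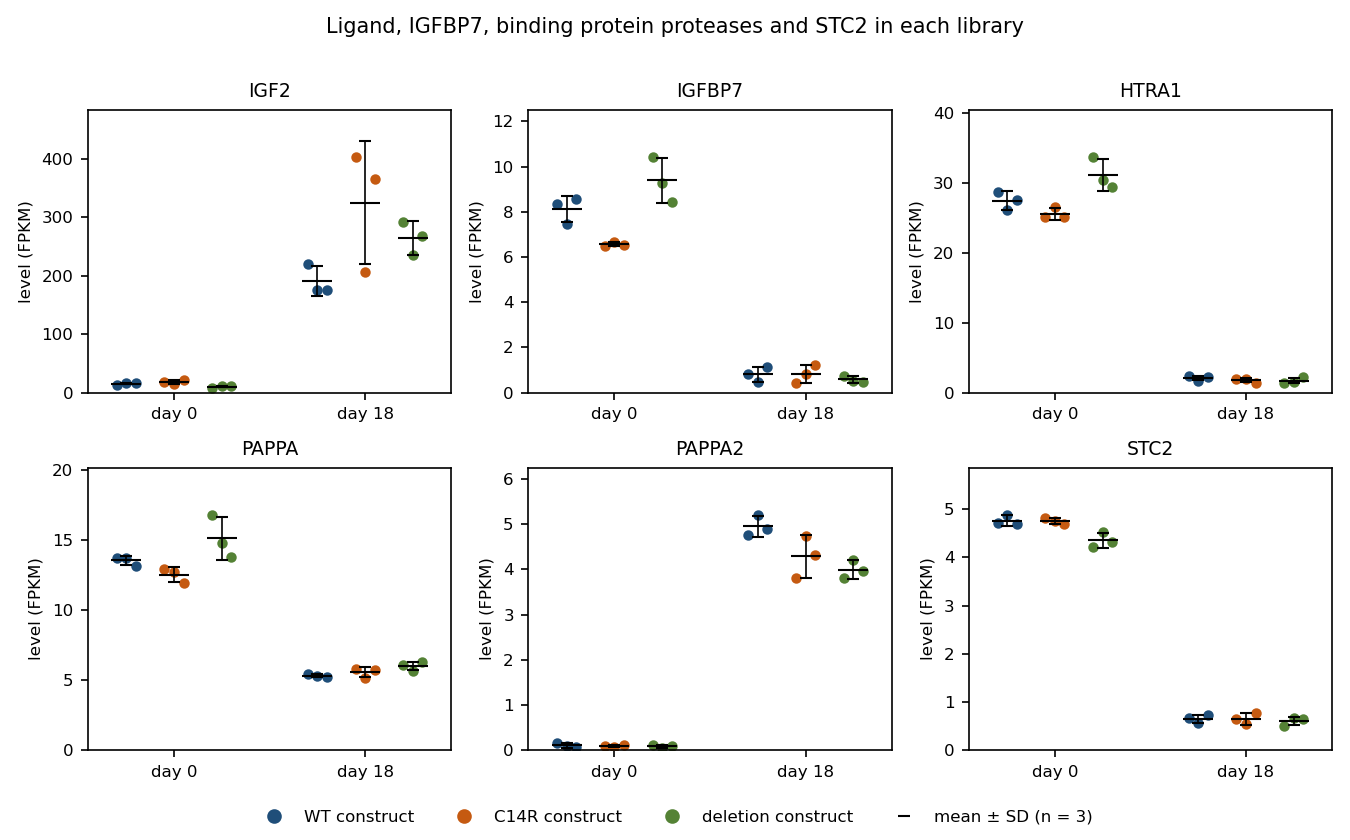
Level in FPKM (vertical axes, each from 0) of IGF2, IGFBP7, the binding protein proteases HTRA1, PAPPA and PAPPA2, and the PAPPA inhibitor STC2, in each of 18 libraries. Points are libraries and bars the mean ± SD of 3. IGF2 and PAPPA2 are higher in every day 18 library than in any of day 0, and the other 4 are lower.

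Next to the receptors, 16 of 19 adaptors, kinases and inhibitors were tested, of which 5 rose, 7 fell and 4 did not pass in WT. INSRR, an orphan relative of INSR, fell from 6.24 ± 0.744 to 0.921 ± 0.224 FPKM in WT (-1.92, SE 0.11, limma adjusted p = 5.5e-11). SOCS3, which damps cytokine and insulin signalling, fell from 10.4 ± 0.337 to 2.47 ± 0.394 (-1.72, SE 0.12, limma adjusted p = 9.5e-10). GRB14, an inhibitor of the insulin receptor kinase, fell from 4.13 ± 0.389 to 0.875 ± 0.139 (-1.45, SE 0.11, limma adjusted p = 2.1e-09).

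Of the 21 genes of the PI3K, AKT and mTOR branch, 7 rose, 10 fell and 4 did not pass in WT. PIK3CD, a catalytic subunit of PI3-kinase, rose from 1.95 to 6.31 FPKM (log2 1.31). EIF4EBP1, the translation repressor that mTOR phosphorylates, fell from 67.5 to 29 FPKM (-1.20). Among 10 tested FOXO factors and genes responsive to FOXO or insulin, 6 rose and 3 fell in WT. SESN1 and SESN3, sestrins that restrain mTOR, went in opposite directions, from 24.4 to 9.66 FPKM (-1.25) and from 22.4 to 44.1 FPKM (0.95), while FOXO1 fell from 3.55 to 1.17 FPKM (-1.07). Of 5 tested genes for IGF2 mRNA-binding proteins and IGF2R cargo, 2 rose and 3 fell. IGF2BP2 fell from 2.95 to 0.0366 FPKM (-1.93), IGF2BP3 fell from 38.1 to 24.2 (-0.63), and GNPTG, a subunit of the enzyme that makes the mannose phosphate tag read by IGF2R, rose from 10.4 to 15.3 (0.51). Each of these 8 named changes passed the test in WT, with limma adjusted p between 4.2e-13 and 6.1e-05.

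The genes with the pattern most like those of IGFBP3 and IGFBP4, the members with the largest fall and the largest rise in the mean of the 3 lines on the log2(FPKM + 1) scale, were taken as those with the smallest root mean square difference of centred log2(FPKM + 1) values over the 18 libraries. For IGFBP3, whose mean change over the lines was -3.92, they were FN1 (0.136), the matrix protein fibronectin, MMP1 (0.145), a collagenase, and ID3 (0.185), an inhibitor of differentiation factors. FN1 was at a mean of 99.9 FPKM on day 0 and 6.65 on day 18, and it is also on the substrate-adherent marker list. MMP1 went from 14.2 to 0.00651 FPKM and ID3 from 32.9 to 1.13, against 66.4 to 3.44 for IGFBP3. In the ratio of FPKM both thus fell further than IGFBP3, MMP1 by far. Their likeness was measured with the pseudocount of 1 and with no other, so it may not hold without it. For IGFBP4, with a mean change of 0.77, they were ATP6V0C (0.070), a subunit of the vacuolar proton pump, CTSB (0.075), a lysosomal protease, and ENDOV (0.080), an endonuclease.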

How the data were processed

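RNA of 18 libraries (6 groups of 3) had been depleted of ribosomal RNA and made into libraries with the NEBNext Ultra kit, per the labels' protocols. The authors deposited 1 table of FPKM values per gene symbol. The submitters' processing notes name TopHat2, STAR, Cufflinks 2.2.1 and hg38. The annotation, the use of strand and the total depth are not given in the sources used here.

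Of 26372 symbols, 4960 were at 0 in all libraries and 13785 had a mean FPKM of at least 1 and were tested. The deposited FPKM values were taken to log2 with a pseudocount of 1 and fitted with limma 3.58.1 (R 4.3.3), with 6 group means and a variance trend. The 11 comparisons were 3 of days, 6 of constructs and 2 differences in the day effect, each with Benjamini-Hochberg adjustment and a threshold of 0.05. Intervals are 95% intervals of the fit. The script was tested on simulated data. The exact two-sided permutation test used 20 relabelings (scipy 1.17.1). All 10 genes are described. Between constructs, the gene with the smallest unadjusted p is named where none passed. Of the pathway lists every ligand and binding protein is named, and of each other list the 3 with the largest passing change in WT. Some genes that this rule names are not reported here. PAPPA and ADAM12 were named after their values were seen. The members and lists were chosen with earlier results of these data known. Marker lists were neuroblastic, neuronal, substrate-adherent, Schwann cell or glia, proliferation and retinoic acid responsive genes. Alternatives varied pseudocount, filter, scaling, variance, weights, block and libraries. Promoters came from RefSeq (GRCh38.p14), where all 10 genes matched.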

Additional observations from a re-analysis of the deposited data

How the results depend on the processing

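Of the alternatives run, the day changes of IGF1R, IGF2R, INSR, IRS2, IGFBP3, IGFBP4 and IGFBP5 kept their direction and passed the test in every line under every alternative with the same threshold. IGFBP2, IGFBP6 and IRS1 did not all do so: IGFBP6 with the deletion failed in 1 of 17, and the IGFBP2 call was lost in 9 of 17 alternatives in WT, 7 of 16 with C14R and 1 of 17 with the deletion. IRS1 with the deletion stood at 0.0088 (adjusted p = 0.93) in place of -0.11 with small RNA genes left out, since that scaling moves the median of all genes from 0.03 to 0.22. It also moves the share of higher among called genes in WT from 52.9% to 68.4%. Requiring a log2 change of at least 1 left 1 member called in WT, 2 with C14R and 1 with the deletion. Array weights gave 1 call in C14R against the deletion on day 0 in place of 0. Leaving out each library in turn gave 8 to 9 calls per line. IRS1 has no value with a mean of at least 5 FPKM as filter. With the replicate number as a block (replicate block) 9 members were called in each line, and the IGFBP3 day effect with the deletion differed from WT by -0.56 (adjusted p = 0.053). The replicate numbers share no stated source: over 45 pairs with the same number the correlation of deviations was -0.36 to 0.17, 6 were over 0.1, and 3 of 18 libraries correlated best with their own number. The depth of the libraries in reads is unknown, so no counting floor is given for genes listed at or near 0.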
